A study of Saccharomyces cerevisiae with 8 samples.

Results

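The genes described here are the 7 that make and break down trehalose in budding yeast (Saccharomyces cerevisiae): TPS1, TPS2, TPS3 and TSL1 for synthesis, and NTH1, NTH2 and ATH1 for breakdown. They were chosen by their systematic names and make up 7 of the 6713 reading frames quantified in every library. The study sequenced rRNA-depleted total RNA from 8 cultures of 50 ml, all of strain background BY4741 and all harvested in mid-exponential growth at an OD600 of about 0.6. There were 4 groups with 2 biological replicates each. In [SMAUG+] inductant 1 and inductant 2, wild-type cells had overexpressed VTS1 from a plasmid for 48 h, after which the plasmid was removed and the cells were passaged for several generations. These are independent inductions, and inductant replicates are cultures of 1 induction. The naive group was untreated wild type, and the vts1∆ group was an untreated vts1 deletion. BY4741 is a MATa haploid with LEU2, MET17 and URA3 deleted and part of HIS3 removed (his3∆1), so every group, controls included, carries those auxotrophies. VTS1 encodes the yeast Smaug protein, which binds RNA hairpins and promotes decay of the bound transcripts.

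Trehalose is a disaccharide of glucose that yeast stores as a reserve and as a protectant of proteins and membranes under stress. Tps1 joins UDP-glucose and glucose 6-phosphate into trehalose 6-phosphate, Tps2 removes the phosphate, and Tps3 and Tsl1 are large regulatory subunits of the same complex. Nth1 is the main neutral trehalase of the cytosol and is switched on by protein kinase A, Nth2 is its paralog, and Ath1 is the acid trehalase needed to grow on external trehalose. Many of these genes are induced by the stress factors Msn2 and Msn4, which bind the stress response element AGGGG.

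Libraries held 18431474 to 27501966 estimated counts. VTS1 had 472 to 794 counts in the 6 libraries with the gene and 0 and 2 in the deletion libraries. It was higher in inductant 2 than in naive (log2 fold change 0.64 ± 0.15, edgeR adjusted p = 0.0248). In inductant 1 it did not pass (0.23 ± 0.15, adjusted p = 0.394). LEU2, MET17 and URA3 were listed at 0 in all 8 libraries, and HIS3, of which part remains, was at 27.9 to 64.8 CPM. The MATa genes STE2, BAR1 and STE6 were present in all 8 (108 to 338 CPM). The short pheromone genes MFA1 and MFA2, also MATa markers, were listed at 0 throughout, so they check nothing. Of the MATalpha genes, STE3 was at 4.53 to 5.58 CPM, MF(ALPHA)2 at 1.43 to 3.27 CPM and MF(ALPHA)1 at 1 to 4 counts. In bulk RNA, fewer cells of a kind and less RNA per cell cannot be told apart. The p-values rest on how far cultures of 1 group differ, and not on repeated inductions or strains.

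All 7 members have a single coding exon and overlap no other annotated gene in build R64. TPS1 (YBR126C) lies on chromosome II from 488905 to 490392, TPS2 (YDR074W) on IV from 593893 to 596583, and TPS3 (YMR261C) on XIII from 790205 to 793369. TSL1 (YML100W) lies on XIII from 70624 to 73920, NTH1 (YDR001C) on IV from 450220 to 452475, NTH2 (YBR001C) on II from 238941 to 241283, and ATH1 (YPR026W) on XVI from 615379 to 619014. All 56 of their estimated counts were whole within 1e-06. Among the paralogs, NTH1 and NTH2 were identical at 69.4% of the longer coding sequence and TPS3 and TSL1 at 62.8%, against 29.5% to 50.5% in the other 19 pairs. Only 3 stretches of 31 bases were shared, all between NTH1 and NTH2. Few reads could therefore be shared between members.

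The stress response element was searched as AGGGG on both strands, so also as CCCCT, in the 500 bases before each start codon of the R64 genome. TPS1 held 6 matches, TSL1 5, TPS2 4, NTH1 3, TPS3 2, ATH1 1 and NTH2 0. Of 6012 genes searched, 34% held at least 1 match, 8.17% at least 2, 1.83% at least 3, 0.449% at least 4, 0.2% at least 5 and 0.0166% at least 6, which is 1 gene, TPS1 itself. Of these matches, 1 of TPS1 and 2 of TSL1 lay beyond the edge of the next annotated gene upstream. NTH1, whose RNA did not pass against naive, held 3 matches between genes, as many as TSL1. A match is a stretch of letters and not a shown binding site. Matches between genes upstream of the 3 members whose RNA fell, 4 of those of TPS1 and each of those of TPS2 and TSL1, are printed below on the coding strand, with the element in capitals, because they show how densely it occurs there.
TPS1 chrII:490737-490761, minus strand: gctgtttataAGGGGattgacgagg
TPS1 chrII:490656-490680, minus strand: gcaggctgatAGGGGtcaccccgct
TPS1 chrII:490627-490651, minus strand: aggtcagggcAGGGGctctcagggg
TPS1 chrII:490617-490641, minus strand: aggggctctcAGGGGggcgccatgg
TPS2 chrIV:593393-593417, plus strand: acttttccctCCCCTccttctcttc
TPS2 chrIV:593442-593466, plus strand: ctcgctggacCCCCTccttccaacg
TPS2 chrIV:593462-593486, plus strand: caacggtcaaCCCCTtcctttctat
TPS2 chrIV:593575-593599, plus strand: gtctgattatAGGGGttagttacgc
TSL1 chrXIII:70383-70407, plus strand: ggagataggaAGGGGcgggggtccg
TSL1 chrXIII:70435-70459, plus strand: gggaaggagaAGGGGgtagaaccaa
TSL1 chrXIII:70449-70473, plus strand: ggtagaaccaAGGGGctagcacact

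**Figure D1:**
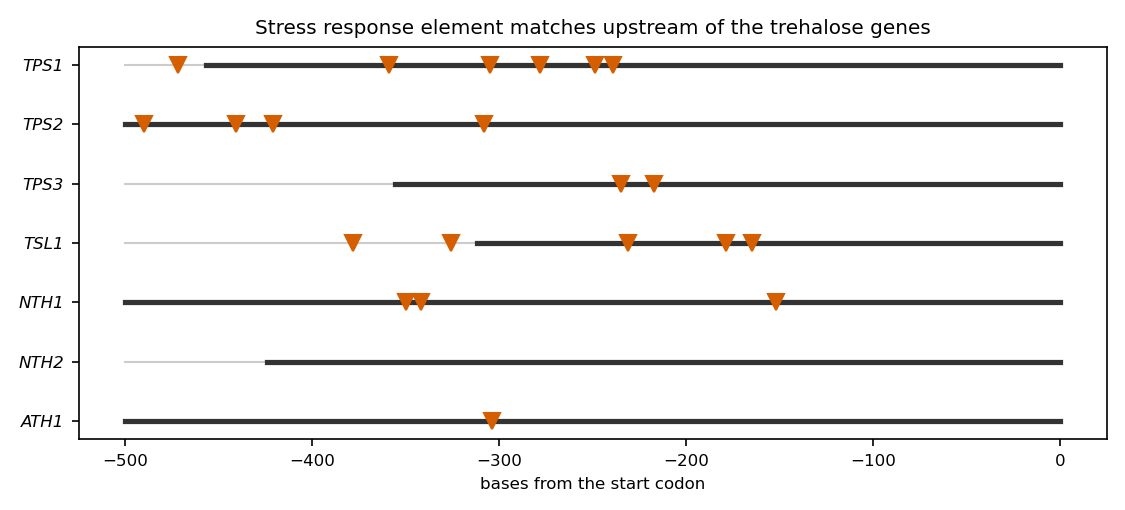
Positions of stress response element matches (triangles) in the 500 bases before the start codon of each trehalose gene; the x axis is the distance in bases. The dark bar ends at the next annotated gene upstream or at the window's edge, and matches range from 6 at TPS1 to 0 at NTH2.

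Coding sequences were also searched on the sense strand for the hairpin that Smaug proteins bind, a loop of C-N-G-G and 0 to 3 further bases closed by 5 Watson-Crick pairs. TPS2 was the only member with one. It is shown, with the first 4 loop bases in capitals, because TPS2 is also the member with the largest change from naive. TPS2 RNA was lower than naive in the inductants (log2 fold change -1.18) and in the deletion (-0.89). A link between the hairpin and these changes was not tested.
TPS2 chrIV:596405-596419, plus strand: aagtcCTGGagactt
Such a hairpin was found in 7.03% of 6014 coding sequences, and in 10.1% of the 2181 with a coding length of 1400 to 3700 bases, so 1 of 7 members is close to the background. With the control loop G-G-N-C, 5.87% of coding sequences and 0 members had one. The letters do not show that the hairpin forms or is bound.

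Levels of different members were compared as TPM, estimated transcript copies scaled by length and to the same total in every library. In naive cells TPS1 (342 ± 46.5 TPM) and TPS2 (338 ± 26.2 TPM) stood highest (mean ± SD, n = 2 here and below) and overlapped. TSL1 followed at 191 ± 37.7 TPM. NTH1 (107 ± 18 TPM) and TPS3 (98.3 ± 9 TPM) overlapped, and NTH2 (29.8 ± 3.5 TPM) and ATH1 (12.4 ± 2.1 TPM) were lowest, without overlap. Averaged over all 8 libraries, TPS1 stood above 92.5% of the 6713 reading frames and ATH1 above 23.2%.

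The order of the means was the same in both inductants as in naive cells and changed in the deletion, while the gaps between neighbours differed. In inductant 1, TPS1 stood at 317 ± 10.9 TPM and TPS2 at 189 ± 19.3 TPM, ahead of TSL1 (148 ± 5.4 TPM), NTH1 (125 ± 0.51 TPM), TPS3 (104 ± 0.42 TPM), NTH2 (28.9 ± 1.4 TPM) and ATH1 (15.1 ± 1.1 TPM), with no overlap between neighbours. Inductant 2 had TPS1 at 241 ± 33.3 TPM and TPS2 at 130 ± 16.9 TPM. Its TSL1 (104 ± 24.5 TPM), NTH1 (94.1 ± 14.4 TPM) and TPS3 (86.1 ± 8.3 TPM) overlapped, and TSL1 also reached into the range of TPS2. NTH2 (27.1 ± 2.6 TPM) and ATH1 (12.7 ± 0.39 TPM) were again lowest. In the deletion, TSL1 (215 ± 7.1 TPM) stood above TPS2 (195 ± 16.4 TPM) without overlap, below TPS1 (371 ± 19.1 TPM) and above NTH1 (120 ± 1.7 TPM), TPS3 (101 ± 1.2 TPM), NTH2 (36.3 ± 2 TPM) and ATH1 (16.1 ± 0.24 TPM).

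The first comparison sets the inductants against naive cells, which were untreated. An induced state and the history of plasmid, overexpression and passaging cannot be told apart in it. In the 2 inductions together, 3 of the 4 synthesis genes were called lower and no trehalase was called. TPS2, the phosphatase gene, fell by 55.8%, TSL1, which encodes a regulatory subunit, fell by 38.1% and TPS1, the synthase gene, fell by 22.9%. Against these 3 of 7 members stand 5.6% of 6230 tested genes that were lower and 8.57% that changed in either direction (edgeR, adjusted p under 0.05). The median log2 fold change of the members was -0.16 and that of all genes tested -0.007.

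TPS2 had 902 and 975 CPM (counts scaled to library size with TMM factors) in the naive libraries. It had 448 and 529 CPM in inductant 1, and 326 and 378 CPM in inductant 2. Both naive libraries stood far above all inductant libraries. The log2 fold change was -1.18 ± 0.09 (SE; edgeR's quasi-likelihood test, adjusted p = 5.62e-05), the eighth smallest p of the 6230 genes. The call was made under every alternative and without any 1 library (-1.25 to -1.11, adjusted p up to 0.00526).

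TSL1 had 576 and 739 CPM in the naive libraries, 482 and 468 CPM in inductant 1, and 298 and 401 CPM in inductant 2. The naive libraries again stood above all 4 inductant libraries, though the naive pair itself was spread widely. TSL1 fell by 0.69 ± 0.13 on the log2 scale (edgeR adjusted p = 0.0219). The call was lost without inductant 1 replicate 1 or 2 or naive replicate 2 (adjusted p = 0.0644 to 0.066, with a log2 fold change of -0.50 in the last case) and with limma on log2(TPM + 1) (adjusted p = 0.0654).

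TPS1 had 454 and 534 CPM in the naive libraries, 412 and 442 CPM in inductant 1, and 312 and 366 CPM in inductant 2. Its naive and inductant 1 ranges were close but did not overlap in CPM. In TPM they overlapped (309 and 375 in naive, 309 and 325 in inductant 1). TPS1 fell by 0.38 ± 0.08 on the log2 scale (edgeR adjusted p = 0.0204). The call was lost without inductant 1 replicate 1 (adjusted p = 0.0861), without naive replicate 2 (-0.25, adjusted p = 0.0594) and with limma on log2(TPM + 1) (adjusted p = 0.118). By CPM, TPS1, TPS2 and TSL1 were the members whose naive libraries both exceeded all 4 inductant libraries, a pattern seen in 14.9% of tested genes.

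The other 4 members did not pass. TPS3, the paralog of TSL1, ranged from 263 to 324 CPM in the inductants and had 308 and 340 CPM in naive (-0.12 ± 0.06, adjusted p = 0.245). NTH1, the main trehalase, had 191 to 270 CPM in the inductants and 219 and 270 CPM in naive (-0.05 ± 0.09, adjusted p = 0.776). NTH2 had 60.1 to 66.4 CPM and 66.4 and 75.9 CPM (-0.16 ± 0.08, adjusted p = 0.226). ATH1, the acid trehalase, had 47.2 to 56 CPM and 42.2 and 52.1 CPM (0.10 ± 0.09, adjusted p = 0.526). The naive and inductant values overlapped or touched in TPS3, NTH1, NTH2 and ATH1.

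**Figure D2:**
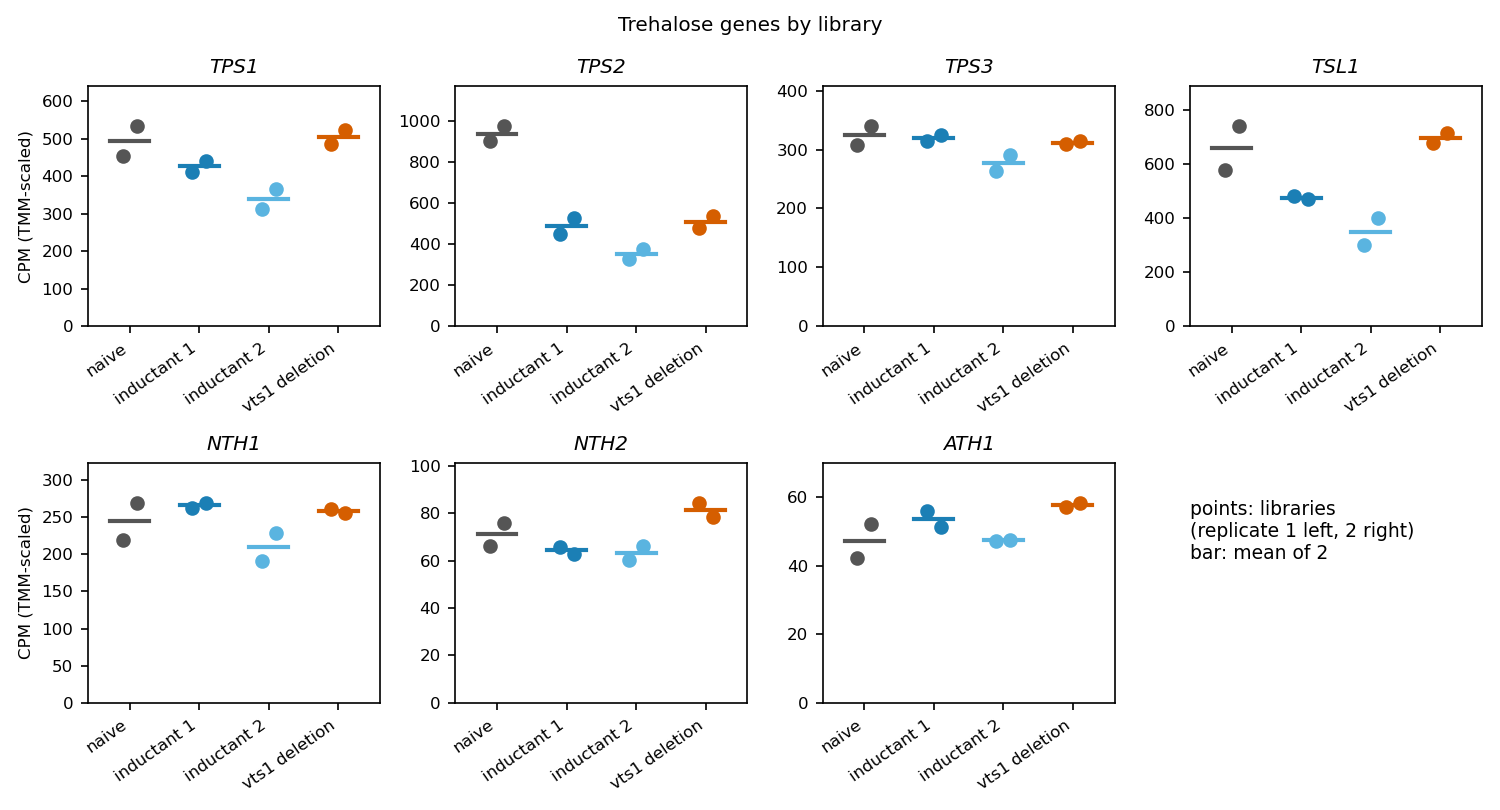
TMM-scaled CPM of each trehalose gene (1 panel a gene, y axis from 0); points are the 8 libraries and bars the means of the 2 in a group. TPS2 is at 902 and 975 CPM in naive and at most 538 CPM in any other library, while TSL1 and TPS1 are lower in the inductants alone.

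All 7 members were higher in naive replicate 2 than in naive replicate 1, by 0.11 (TPS2) to 0.36 (TSL1) on the log2 scale, where the median absolute difference of all genes in that pair was 0.15. Inductant 2 showed the same order of its libraries, by 0.01 (ATH1) to 0.43 (TSL1), with an all-gene median of 0.11. TPS1, TPS2 and TPS3 were higher in replicate 2 in inductant 1 too (0.10, 0.24 and 0.04, all-gene median 0.11). The same held in the deletion (0.11, 0.17 and 0.03, all-gene median 0.08). Each of the other members was lower in replicate 2 in inductant 1, in the deletion or in both. The part of these library differences in the results was not tested beyond leaving out each library and a fit with the replicate number as a block.

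Each induction was then set against the same naive libraries. In inductant 1, TPS2 fell by 0.94 ± 0.10 on the log2 scale (edgeR adjusted p = 0.00298), as 1 of 7 members called, against 3.19% of genes lower and 4.4% changed. That call was lost with limma on log2(TPM + 1) (adjusted p = 0.0591). TSL1 (-0.47 ± 0.16, adjusted p = 0.137) and TPS1 (-0.21 ± 0.10, adjusted p = 0.242) did not pass there, although TSL1 passed with DESeq2 (adjusted p = 0.00701) and without either inductant 2 library (adjusted p = 0.0415 and 0.0421), and ATH1 was called higher without naive replicate 2 (0.35, adjusted p = 0.0324).

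In inductant 2, 3 of 7 members fell, against 5.79% of genes lower and 9.04% changed. TPS2 fell by 1.41 ± 0.10 (edgeR adjusted p = 6.36e-05), TSL1 by 0.91 ± 0.16 (adjusted p = 0.0142) and TPS1 by 0.54 ± 0.10 (adjusted p = 0.00685) on the log2 scale. The TSL1 and TPS1 calls were lost in a fit of the 2 groups alone (adjusted p = 0.0552 and 0.0583), and that of TPS1 also with limma on log2(TPM + 1) (0.0668) and without inductant 2 replicate 1 (adjusted p = 0.0737). Without naive replicate 1, TPS3 (-0.31, adjusted p = 0.0246) and NTH1 (-0.37, adjusted p = 0.0342) were called lower too.

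The difference between the inductions was tested directly. With edgeR 0 of 7 members passed, against 0.449% of all genes, and 5 members had an unadjusted p under 0.05, as did 964 of the 6230 genes. DESeq2 called 3 members higher in inductant 1, against 2.09% of genes: TPS2 (0.47, adjusted p = 0.000992), TSL1 (0.44, adjusted p = 0.0244) and TPS1 (0.34, adjusted p = 0.0432). The edgeR estimates were 0.47 ± 0.10 for TPS2 (adjusted p = 0.0781), 0.44 ± 0.16 for TSL1 (adjusted p = 0.245) and 0.33 ± 0.10 for TPS1 (adjusted p = 0.148). Leaving out a naive library, which enters that fit through the shared spread, brought TPS1 (adjusted p = 0.0395 and 0.0397) and NTH1 (0.35 and 0.34, adjusted p = 0.0325 and 0.0344) past the threshold, and TPS2 without naive replicate 2 (adjusted p = 0.0453). In the same fits the calls over all genes went from 28 to 318 and 312. All 7 members had a positive estimate, from 0.03 (NTH2) to 0.47, with an all-gene median of 0.

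The second comparison asks what loss of VTS1 changes. TPS2 was the only member called in the deletion, where it fell by 46%. The synthase gene TPS1 and the subunit genes TPS3 and TSL1 lay inside the naive range of CPM. The TPS2 call is 1 of 7 members, against 14.6% of genes lower and 26.3% changed in either direction. The share of members lower is thus close to the background, and 7 members are too few to tell it from 26.3%. The median log2 fold change of the members was 0.08 and that of all genes 0.

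TPS2 had 476 and 538 CPM in the deletion, against 902 and 975 CPM in naive, and its log2 fold change was -0.89 ± 0.10 (edgeR adjusted p = 0.000264). The call was made under every alternative and without any 1 library (-0.98 to -0.73, adjusted p up to 0.00581). TPS2 was the only member whose naive libraries exceeded the other 6, which 7.29% of tested genes did. Both this fall and that in the inductants are measured against the same 2 naive libraries, so they are not independent.

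TPS1 had 485 and 523 CPM in the deletion, inside the naive range (0.03 ± 0.10, edgeR adjusted p = 0.855). TSL1 had 678 and 712 CPM, also inside it (0.08 ± 0.16, adjusted p = 0.751), as were TPS3 at 309 and 315 CPM (-0.05 ± 0.07, adjusted p = 0.632) and NTH1 at 261 and 256 CPM (0.08 ± 0.11, adjusted p = 0.633). NTH2 had 84.6 and 78.4 CPM, above both naive libraries, and did not pass (0.20 ± 0.09, adjusted p = 0.132). ATH1 had 57.2 and 58.5 CPM, also above both (0.29 ± 0.10, adjusted p = 0.0562). Without naive replicate 2 both passed, ATH1 at 0.46 (adjusted p = 0.00583) and NTH2 at 0.30 (adjusted p = 0.0394). These 2 trehalases share this separation with 32.4% of tested genes. Scaling by library size alone moved the median of all genes in this comparison by 0.153 log2 and called ATH1 (0.45, adjusted p = 0.0133) and NTH2 (0.35, adjusted p = 0.0228) higher, with 24.2% of genes.

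**Figure D3:**
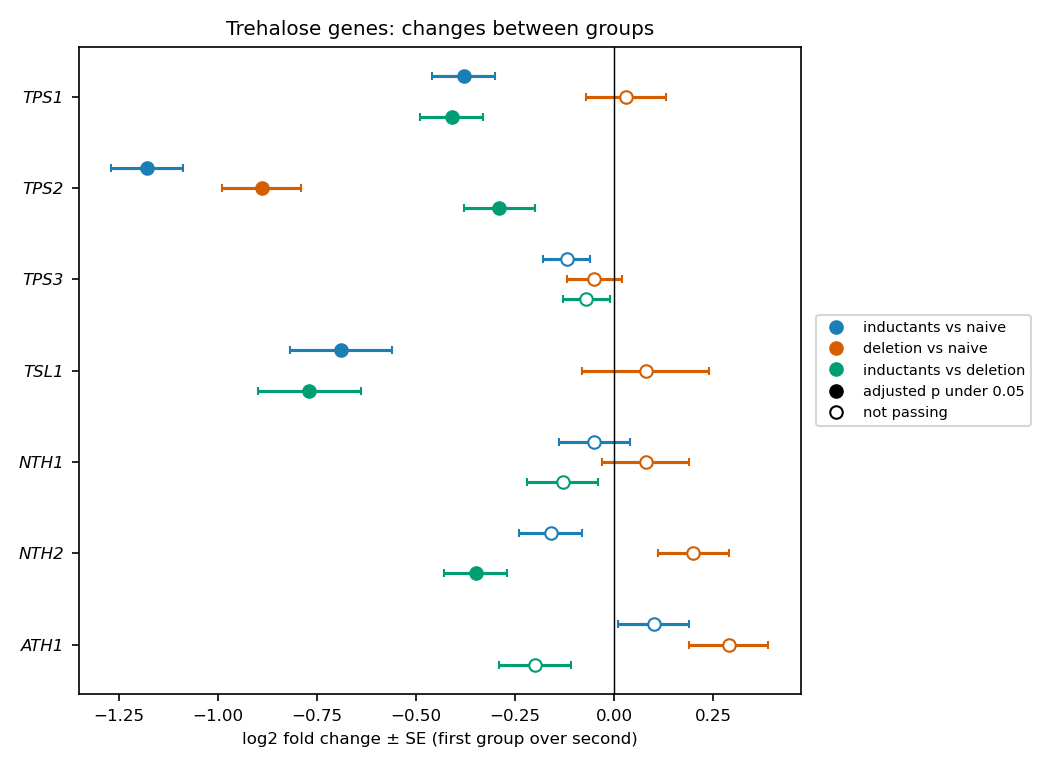
Log2 fold change with its SE (x axis) of each trehalose gene in 3 comparisons; filled points passed edgeR's test at an adjusted p under 0.05. TPS2 is lower than naive in the inductants (-1.18) and in the deletion (-0.89), while TPS1 and TSL1 are lower in the inductants than in either naive or deletion libraries.

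The third comparison tests directly whether inductants and deletion differ. Of the 7 members, 4 were lower in the inductants and 0 higher, against 19% of genes lower and 37.6% changed in either direction. TSL1 differed most, by -0.77 ± 0.13 (edgeR adjusted p = 0.00372), a call made under every alternative and without any 1 library (-0.95 to -0.68, adjusted p up to 0.03). TPS1 differed by -0.41 ± 0.08 (adjusted p = 0.00372), a call lost without vts1∆ replicate 2 (adjusted p = 0.0563).

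NTH2 was also lower in the inductants than in the deletion (-0.35 ± 0.08, edgeR adjusted p = 0.00478). Its 4 inductant libraries, at 60.1 to 66.4 CPM, lay below 78.4 and 84.6 CPM in the deletion. TPS1, TSL1, NTH2 and ATH1 had both deletion libraries above all 4 inductant libraries, as did 28.4% of tested genes. The NTH2 call was lost without vts1∆ replicate 1 (adjusted p = 0.0665). TPS2 differed by -0.29 ± 0.09 (adjusted p = 0.0266), and the inductant 1 and deletion ranges overlapped. That call was lost without inductant 1 replicate 1, inductant 2 replicate 1 or vts1∆ replicate 2 (adjusted p = 0.0584 to 0.237) and with limma on log2(TPM + 1) (adjusted p = 0.0533).

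ATH1 (-0.20 ± 0.09, adjusted p = 0.103), NTH1 (-0.13 ± 0.09, adjusted p = 0.31) and TPS3 (-0.07 ± 0.06, adjusted p = 0.429) did not pass this edgeR test. ATH1 passed without either naive library (-0.21 and -0.20, adjusted p = 0.0236 and 0.0329) and with the groups compared alone (-0.20, adjusted p = 0.0307). Members had a median of -0.29 and all genes of -0.02. With library size alone, which moved the all-gene median by -0.176, all 7 members were called lower, with 37.6% of genes.

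Ratios within a library do not depend on how libraries are scaled to each other. The TPM ratio of TPS2 to TPS1 was 1.03 and 0.952 in the naive libraries. In the inductants it was 0.566, 0.624, 0.545 and 0.538, and in the deletion 0.512 and 0.536. Naive cells thus held about as much TPS2 as TPS1 RNA per length, and no other library exceeded 0.624. With the smaller tail doubled, an exact two-sided permutation p cannot fall below 0.133 for 4 inductant against 2 naive libraries. For 2 against 2 it cannot fall below 0.333, so the ratios are given as values.

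The ratio of TSL1 to its paralog TPS3 followed another order. It was 1.79 and 2.08 in naive libraries and reached 2.1 and 2.16 without VTS1, against 1.46 and 1.38 in inductant 1 and 1.08 and 1.32 in inductant 2. The inductants lay below both other groups. The trehalase ratio NTH1 to NTH2 was 3.44 and 3.71 in naive, 4.15 and 4.47 in inductant 1, 3.32 and 3.6 in inductant 2, and 3.21 and 3.4 in the deletion, so inductant 1 was highest.

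Summed over the 4 synthesis genes and divided by the 3 trehalase genes, the TPM ratio was 6.69 and 6.37 in naive. It was 4.35 and 4.64 in inductant 1, 4.13 and 4.24 in inductant 2, and 4.87 and 5.37 in the deletion. The naive libraries were the highest, the deletion intermediate and the inductants lowest, without overlap. RNA levels say nothing of enzyme activity, which for Nth1 depends on phosphorylation.

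**Figure D4:**
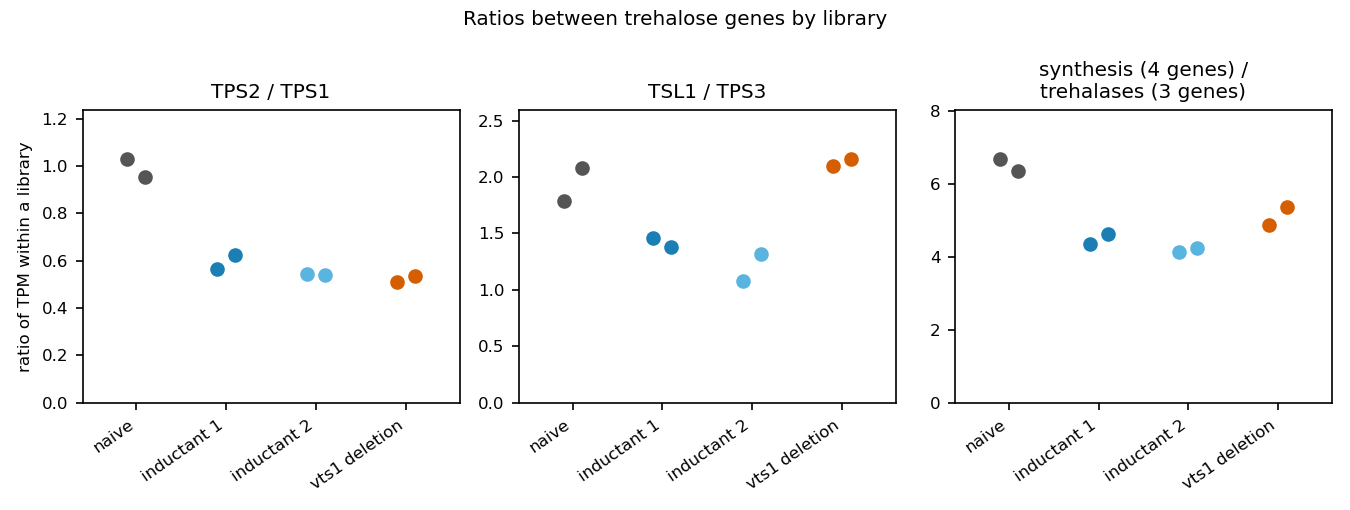
Ratios of TPM within each library (y axes from 0): TPS2 to TPS1, TSL1 to TPS3, and the 4 synthesis genes to the 3 trehalases; points are libraries. TPS2 to TPS1 is near 1 only in naive (1.03 and 0.952), and TSL1 to TPS3 is below 1.5 only in the inductants.

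Across the 8 libraries TPS1 and TSL1 varied together (Pearson r = 0.98 of log2 CPM, n = 8), and TPS2 followed them less closely (r = 0.74 with TPS1 and 0.72 with TSL1). TPS2 had r = 0.38 with NTH1, 0.32 with NTH2 and -0.18 with ATH1. The other synthesis genes had higher values with the trehalases, from 0.40 (TPS3 with ATH1) to 0.90 (TPS3 with NTH1). TPS1 had r = 0.77 with NTH1 and with NTH2, and TSL1 had 0.85 with NTH2. These values share the library groups and depth and are a description. The mean profile of TPS1, TPS2 and TSL1 was closest to CMK1 (r = 0.992), YGR130C (r = 0.988) and BDH2 (r = 0.986) among tested genes. That of NTH2 was closest to SSQ1 (r = 0.978), YBR062C (r = 0.966) and MRP10 (r = 0.962). TPS2 alone, a choice made after its values were seen, was closest to GIS1 (r = 0.995), GLC3 (r = 0.989) and PGM2 (r = 0.987).

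Genes that supply glucose 6-phosphate and UDP-glucose were read next. In the inductants 4 of 7 fell and 0 rose, where 5.6% of all genes were lower and 2.97% higher, and their median log2 fold change was -0.48 (all genes -0.007). PGM2, the stress-induced phosphoglucomutase, fell by 1.19 ± 0.10 on the log2 scale (edgeR adjusted p = 0.000176), from 417 and 525 CPM in naive to 153 to 262 CPM. EMI2, a glucokinase paralog, fell by 1.03 ± 0.10 (adjusted p = 0.000427), the hexokinase gene HXK1 by 0.93 ± 0.10 (adjusted p = 0.000586) and the glucokinase gene GLK1 by 0.48 ± 0.10 (adjusted p = 0.0191). The GLK1 call was lost without inductant 1 replicate 1 or 2 or naive replicate 2 (adjusted p = 0.0505 to 0.075) and with limma on log2(TPM + 1) (adjusted p = 0.0925). HXK2, the main hexokinase on glucose (-0.01 ± 0.06, adjusted p = 0.94), PGM1, the other phosphoglucomutase (0 ± 0.06, adjusted p = 0.964), and UGP1, which makes UDP-glucose (-0.21 ± 0.07, adjusted p = 0.0711), did not pass.

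In the deletion 5 of these 7 fell and 1 rose, where 14.6% of all genes were lower and 11.7% higher, and their median was -0.75 (all genes 0). HXK2 fell from 2405 and 2599 CPM in naive to 1078 and 1155 CPM (-1.16 ± 0.07, edgeR adjusted p = 1.49e-06). On the log2 scale PGM1 fell by 0.75 ± 0.07 (adjusted p = 2.77e-05), EMI2 by 1.49 ± 0.12 (adjusted p = 6.08e-05), PGM2 by 0.98 ± 0.12 (adjusted p = 0.000538) and HXK1 by 0.65 ± 0.12 (adjusted p = 0.00385). UGP1 rose from 476 and 526 CPM to 674 and 706 CPM (0.46 ± 0.08, adjusted p = 0.00143), and GLK1 did not pass (-0.12 ± 0.12, adjusted p = 0.49). PGM2, EMI2 and HXK1 were thus lower than naive in both comparisons, as TPS2 was, with the naive libraries shared.

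Set against the deletion, where 18.7% of all genes were higher and 19% lower in the inductants, these had more HXK2 RNA (1.15 ± 0.06, edgeR adjusted p = 4.87e-07), PGM1 (0.75 ± 0.06, adjusted p = 6.47e-06) and EMI2 (0.46 ± 0.11, adjusted p = 0.0102). They had less UGP1 (-0.67 ± 0.06, adjusted p = 2.81e-05) and GLK1 (-0.36 ± 0.10, adjusted p = 0.0196). The EMI2 call was lost without vts1∆ replicate 1 (adjusted p = 0.124), and that of GLK1 without either deletion library or inductant 1 replicate 1 (adjusted p = 0.0536 to 0.148).

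**Figure D5:**
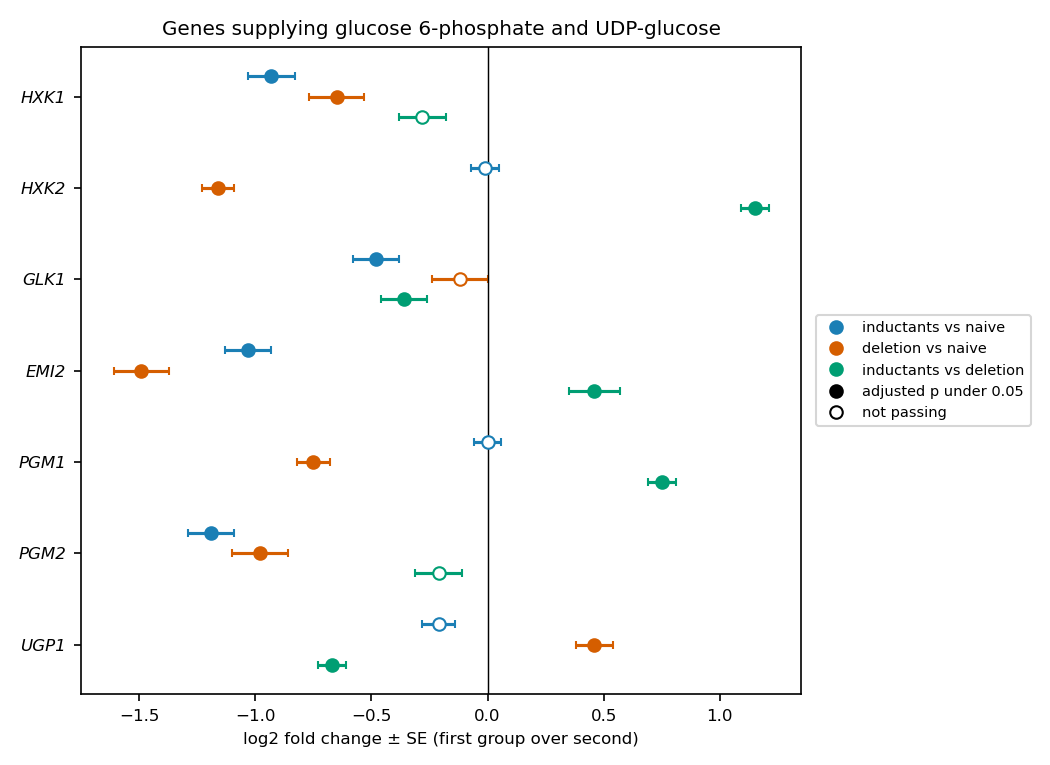
Log2 fold change with its SE (x axis) of 7 genes that supply glucose 6-phosphate and UDP-glucose, in 3 comparisons; filled points passed edgeR's test. HXK2 and PGM1 lie near 0 in the inductants and at -1.16 and -0.75 in the deletion, and UGP1 is higher than naive in the deletion (0.46).

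Of 8 regulators and partners, 3 fell in the inductants and 0 rose, where 5.6% of all genes were lower and 2.97% higher (median -0.04, all genes -0.007). The stress factor gene MSN4 fell by 0.53 ± 0.07 on the log2 scale (edgeR adjusted p = 0.000887), TPK2, a catalytic subunit of protein kinase A, by 0.49 ± 0.08 (adjusted p = 0.00466), and BCY1, its regulatory subunit, by 0.26 ± 0.07 (adjusted p = 0.0352). MSN4 had 97.7 and 114 CPM in naive and 60.9 to 86.7 CPM in the inductants. Its partner MSN2 stood at -0.01 ± 0.06 (adjusted p = 0.964). The BCY1 call was lost in every fit without 1 library (adjusted p = 0.0618 to 0.148) except those without inductant 1 replicate 2 or naive replicate 2. It was also lost with limma on log2(TPM + 1) (-0.19, adjusted p = 0.114) and with the groups compared alone (-0.25, adjusted p = 0.0698).

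In the deletion 1 of the 8 rose, MSN2 (0.28 ± 0.07, edgeR adjusted p = 0.0179), and 1 fell, MSN4 (-0.26 ± 0.08, adjusted p = 0.0387), with a median of 0.04 (all genes 0). With 11.7% of all genes higher and 14.6% lower, these shares are close to the background. The MSN2 call was lost without either deletion library (adjusted p = 0.0943 to 0.103). That of MSN4 was lost with DESeq2 (adjusted p = 0.0521), with limma on log2(TPM + 1) (-0.16), with library size alone (-0.11), in the 2 groups alone, and without any 1 library except naive replicate 1 (-0.28 to -0.14).

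Against the deletion, 3 of the 8 were lower in the inductants and 0 higher, where 19% of all genes were lower and 18.7% higher: MSN2 (-0.28 ± 0.06, edgeR adjusted p = 0.00504), MSN4 (-0.27 ± 0.07, adjusted p = 0.0114) and BCY1 (-0.30 ± 0.07, adjusted p = 0.00486). Without vts1∆ replicate 2 the calls of MSN4 and BCY1 were lost (adjusted p = 0.0909 and 0.0772), and that of MSN4 also without replicate 1 (adjusted p = 0.0572). The other 4 of the 8 passed in none of the 3 comparisons.

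MAL11, which encodes a transporter of maltose and trehalose, fell in the inductants (-0.80 ± 0.11, edgeR adjusted p = 0.00112) and in the deletion (-1.25 ± 0.13, adjusted p = 9.13e-05). It was higher in the inductants than in the deletion (0.45 ± 0.12, adjusted p = 0.0119), a call lost with library size alone (0.27, adjusted p = 0.0786) and without vts1∆ replicate 2 (adjusted p = 0.151). None of its 8 estimated counts was whole, so it shares reads with other sequences and its exact level is uncertain.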

How the data were processed

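Per the submitters' processing notes, reads were quantified with kallisto against build R64; its version, read layout and strand setting: not given in the sources used here. For each of the 8 libraries the authors deposited kallisto's estimated counts and TPM values for 6713 reading frames, per the file headers. Counts were rounded, scaled by TMM and filtered by group with filterByExpr (6230 genes kept, all 7 members among them). The test was edgeR's robust quasi-likelihood test (edgeR 4.0.16, R 4.3.3), with a mean for each group and all 8 libraries in 1 fit (4 residual degrees of freedom). Tests are two-sided, with Benjamini-Hochberg adjustment over all genes tested and calls at an adjusted p under 0.05; the inductants enter with equal weights. Alternatives used DESeq2 1.42.0 and limma 3.58.1. The fit was tested on simulated data. Names and coordinates come from RefSeq's R64, which matched 6026 rows. All 7 members are named; other pathway genes are named where called in at least 1 of the 3 main comparisons, beside the 3 genes closest in profile. A further gene of the regulator list and the sequence of a further promoter match are not reported here. Members, lists and tests were chosen with earlier results of these data known. Over all genes, same-numbered replicates did not deviate together (r of -0.11 to 0.11), so no block was used in the main fit. TPS1, TPS2 and TPS3, however, were higher in replicate 2 in all 4 groups.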

Additional observations from a re-analysis of the deposited data

Results flagged for a closer look

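The effects of the inductants and of the deletion, both relative to naive, differed by a direct test in 4 members, with log2 differences (inductants over deletion) of -0.77 in TSL1, -0.41 in TPS1, -0.35 in NTH2 and -0.29 in TPS2 (edgeR's quasi-likelihood test, adjusted p = 0.00372, 0.00372, 0.00478 and 0.0266), where 19% of all genes were lower and 37.6% differed in either direction. The TSL1 call held with any 1 library left out, and those of TPS1, NTH2 and TPS2 were each lost without at least 1 library. By CPM, the inductants were below naive in TPS1 and TSL1 while the deletion lay inside the naive range. In TPS2 both groups were below naive. Inductant 1 alone did not pass against naive in TPS1 or TSL1 (edgeR adjusted p = 0.242 and 0.137). In TPM, TPS1 overlapped between naive and inductant 1. Deletion replicate 2 lay just above naive there (385 against 375 TPM in TPS1, 220 against 218 TPM in TSL1). The TPS2 means were 489 CPM in inductant 1 and 507 CPM in the deletion, against 352 CPM in inductant 2. Between the 2 inductions 0 members passed edgeR's test, where 5 had an unadjusted p under 0.05, as did 964 of 6230 genes, and DESeq2 called 3 members and 183 genes.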

How the results depend on the processing

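TPS2 was called lower than naive in the inductants and in the deletion, and TSL1 lower in the inductants than in the deletion, under every alternative run. The number of members called moved elsewhere. Inductants against naive (3 called) gave 1 with limma on log2(TPM + 1) and 1 to 3 with 1 library left out. Deletion against naive (1) gave 3 with library size alone and 1 to 3 with 1 library left out. Inductants against deletion (4) gave 7 with library size alone and 2 to 5 with 1 library left out. Inductant 1 against naive (1) gave 2 with DESeq2, 0 with limma and 1 to 2 with 1 library left out. Inductant 2 against naive (3) gave 1 in the 2 groups alone and 2 to 5 with 1 library left out. The inductions against each other (0) gave 3 with DESeq2, 1 in the 2 groups alone and 0 to 3 with 1 library left out. With the replicate number as a block, deletion against naive gave 2 members and inductant 1 against naive 2. The inductions against each other gave 2, TPS1 (edgeR adjusted p = 0.0262) and TPS2 (adjusted p = 0.00331). The replicate numbers are not known to pair the cultures.

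Estimates that changed sign were all of members that did not pass. With library size alone ATH1 in inductant 2 was at -0.03 and TPS3 in the deletion at 0.10, and without the count filter ATH1 in inductant 2 was at -0.01. With limma NTH1 in the inductants was at 0.03, TPS3 in the deletion at 0.04 and TPS3 in inductant 1 at 0.08. With 1 library left out, estimates against naive ran from -0.05 to 0.26 (ATH1) and -0.19 to 0.11 (NTH1) in the inductants, and from -0.07 to 0.15 (TPS1), -0.11 to 0.02 (TPS3), -0.08 to 0.27 (TSL1) and -0.05 to 0.24 (NTH1) in the deletion. In inductant 1 they ran from -0.09 to 0.05 (TPS3) and -0.02 to 0.28 (NTH1), in inductant 2 from -0.15 to 0.17 (ATH1), and between the inductions from -0.04 to 0.12 (NTH2). The cause was not tested. Counts over all genes moved as well. Inductants against naive gave 534 calls, 222 with limma, 340 with the groups compared alone and 277 to 1221 with 1 library left out. Inductant 1 against naive gave 274, 494 with DESeq2, 5 with limma and 24 to 1048 with 1 library left out. The inductions against each other gave 28, 183 with DESeq2, 113 in the 2 groups alone, 140 with the block and 1 to 318 with 1 library left out. With 2 cultures per group, no difference from naive passed in the main fit for TPS3, NTH1, NTH2 or ATH1. That does not show that such differences are absent.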
